A study of Mus musculus with 12 samples.

Results

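The amyloid precursor protein gene *App*, its paralog *Aplp2* and 7 genes of the secretases that cut their products (*Bace1*, *Bace2*, *Psen2*, *Ncstn*, *Psenen*, *Aph1a* and *Adam10*) were followed in CD11b-positive cells of the mouse cerebral cortex. They were taken by symbol from a table of raw read counts and make up 9 of its 55487 genes. All 9 passed the filter on low counts, which kept 15425 genes for testing. RNA of 12 male mice was sequenced, 3 in each of 4 groups, after magnetic isolation of the cells from papain-digested cortex with anti-CD11b beads. Microglia and other myeloid cells carry CD11b on their surface.

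The groups were WT mice given PBS (veh), WT mice given rh Bri2 BRICHOS R221E, *App*NL-G-F mice given veh and *App*NL-G-F mice given rh Bri2 BRICHOS R221E, below called WT-veh, WT-BRICHOS, App-veh and App-BRICHOS, with BRICHOS standing for the injected protein. WT mice were C57BL/6J, the background strain of the *App*NL-G-F line, in which the mouse *App* gene itself carries a humanized Aβ sequence with the Swedish, Iberian and Arctic mutations, so that transcription stays under the gene's own promoter. The edited and the mouse transcript were counted as one gene and cannot be told apart in these counts. Rh Bri2 BRICHOS R221E is a recombinant human chaperone domain of Bri2, the product of *ITM2B*, with an amino acid exchange. Mice of every group received 24 intravenous injections over 12 weeks from an age of 9 months, of 10 mg/kg protein or of PBS, and were killed 4 weeks after treatment ended.

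App is a membrane protein that is cut in alternative ways. Cleavage by the α-secretase Adam10 within the Aβ sequence releases a large soluble ectodomain, whereas cleavage by the β-secretase Bace1 followed by the γ-secretase complex releases Aβ. The γ-secretase holds a presenilin, such as Psen2, as its catalytic subunit together with nicastrin (Ncstn), Pen-2 (Psenen) and an Aph1 protein, and it cuts many other membrane proteins, among them Aplp2 and the Notch receptors. In the brain neurons are regarded as the main source of Aβ.

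In the mouse genome GRCm38 the gene *App* (ENSMUSG00000022892) lies on chromosome 16 at 84949685-85173766 on the minus strand, and *Aplp2* (ENSMUSG00000031996) lies on chromosome 9 at 31149557-31211815, also on the minus strand. *Adam10* (ENSMUSG00000054693) occupies chromosome 9 at 70678997-70780229 on the plus strand. *Bace1* lies on chromosome 9 at 45838580-45864399 and *Bace2* on chromosome 16 at 97356742-97442936, both on the plus strand. Of the γ-secretase genes, *Psen2* (chromosome 1, 180227004-180263438), *Ncstn* (chromosome 1, 172066013-172082795) and *Psenen* (chromosome 7, 30561863-30563627) are on the minus strand and *Aph1a* (chromosome 3, 95893969-95898288) is on the plus strand. All 9 are protein-coding genes. Exons of *App*, *Bace1*, *Ncstn*, *Psenen* and *Aph1a* overlap an exon of a gene on the opposite strand (*Gm49227*, *Rnf214* with *Gm16536* and *Gm49338*, *Copa*, *U2af1l4* with *Gm49396*, and *Car14*, respectively). The strand setting of the counting is not given in the sources used here, so reads of these overlaps may have been counted for either gene or for neither. No exon of *Aplp2*, *Bace2*, *Psen2* or *Adam10* was overlapped.

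The promoters of *App*, the edited gene, and of *Aplp2* and *Adam10*, the members with the lowest p-values in the direction of higher and of lower levels in *App*NL-G-F mice, are shown 5′ to 3′ as listed by RefSeq for GRCm38.p6. They are chr16:85173767-85173957 on the minus strand, chr9:31211849-31212098 on the minus strand and chr9:70678732-70678981 on the plus strand, and all 3 end before the annotated gene start. Capitals mark the GC box GGGCGG, read on either strand (CCGCCC), and the E-box CACGTG.
App: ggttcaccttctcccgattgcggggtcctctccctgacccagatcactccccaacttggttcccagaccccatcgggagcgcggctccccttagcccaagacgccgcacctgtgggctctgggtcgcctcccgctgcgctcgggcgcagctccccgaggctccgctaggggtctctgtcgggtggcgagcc
Aplp2: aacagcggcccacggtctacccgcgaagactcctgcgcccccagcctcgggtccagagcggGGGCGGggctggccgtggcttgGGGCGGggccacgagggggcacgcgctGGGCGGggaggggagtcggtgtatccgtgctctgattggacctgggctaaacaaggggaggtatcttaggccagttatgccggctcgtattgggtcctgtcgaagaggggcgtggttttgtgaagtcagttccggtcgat
Adam10: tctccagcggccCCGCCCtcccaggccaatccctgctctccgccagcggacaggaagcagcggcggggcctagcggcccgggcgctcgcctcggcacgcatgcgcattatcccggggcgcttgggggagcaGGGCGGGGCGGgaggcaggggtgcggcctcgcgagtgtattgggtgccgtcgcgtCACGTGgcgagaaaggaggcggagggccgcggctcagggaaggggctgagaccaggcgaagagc

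The stretches before *Aplp2* and *Adam10* hold 3 GC boxes each, and in *Adam10* a pair of them shares 1 base. *Adam10* also holds 1 E-box. Neither motif was found in the 191 bases shown for *App*, while the whole 250-base window of its RefSeq entry holds 1 GC box and 0 E-boxes. Over the 250 bases upstream of the start in 32851 RefSeq promoters, 32.7% hold a GC box and 6.02% an E-box. The ETS motif GAGGAA (23.3% of promoters) and the AP-1 motif TGANTCA (6.75%) were also searched on both strands and are in none of the 3 stretches. The GC content of the stretches is 69.6% for *App*, 66.4% for *Aplp2* and 74.0% for *Adam10*, against a median of 52.4% over all promoters. A match of letters is a description and not a binding site. Promoter entries were matched for 7 of the 9 genes, the exceptions being *Bace1* and *Bace2*.

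Library totals were between 12433402 and 17889654 counts, and 3 counts, taken as the detection floor, correspond to 0.168 to 0.241 CPM (read counts scaled to a common library size). The 10 microglial markers summed to between 26099 and 31602 CPM in every library. Markers of other cells were present and moved with strain or library. Those of oligodendrocyte precursors summed to 22.6-74.9 CPM in WT and to 92.1-154 CPM in *App*NL-G-F mice. The 6 oligodendrocyte markers summed to 9409-16582 CPM in WT-veh, 4013-14995 in WT-BRICHOS, 2975-5367 in App-veh and 4292-5799 CPM in App-BRICHOS mice. The 8 astrocyte markers summed to 427-781 CPM in WT mice, 1405-4509 CPM in App-veh and 653-1887 CPM in App-BRICHOS mice, and the 9 neuron markers to 22.7-33.9 CPM in WT and 8.16-11.6 CPM in *App*NL-G-F mice. Border macrophage markers summed to 275-444 CPM in WT and 114-155 CPM in *App*NL-G-F mice. Neutrophil markers summed to 31.3-346 and 10.2-32.6 CPM, respectively. Choroid plexus and ependyma markers reached 6656 CPM in WT-BRICHOS mice. Endothelial markers summed to 491-701 CPM in WT, 426-572 CPM in App-veh and 359-410 CPM in App-BRICHOS mice. Mural cell markers had 136-227, 83.4-128 and 54.3-89.3 CPM. No marker of these lists was at 0 in any group. The part of other cells in the levels of the 9 genes was not tested. Since the samples are bulk RNA, fewer cells of a type and less RNA per cell cannot be told apart.

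Scaled by the length of the principal transcript, the 9 genes covered a wide range of levels. In WT-veh mice *App* was highest with 227 ± 34.1 CPM per kb (SD, n = 3), followed by *Adam10* with 73.0 ± 1.47, *Aplp2* with 65.9 ± 5.05, *Ncstn* with 63.1 ± 5.91 and *Psenen* with 48.3 ± 1.83 CPM per kb. *Aph1a* (14.7 ± 1.22), *Psen2* (9.60 ± 0.758), *Bace1* (3.44 ± 1.21) and *Bace2* (0.115 ± 0.0190) were lower on this scale. *Aplp2* and *Ncstn* differed by less than their spread. In App-veh mice *Aplp2* came first with 225 ± 4.65 CPM per kb, above *App* with 179 ± 12.2, and *Ncstn* with 81.2 ± 2.55 stood above *Adam10* with 57.9 ± 1.16 CPM per kb.

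To ask how the strain affects these genes, mice of the App-veh and WT-veh groups were compared, and the same was done between the BRICHOS-treated mice of both strains, which are other animals. *Aplp2*, *Psen2* and *Ncstn* were higher and *Adam10* was lower in *App*NL-G-F mice under both treatments. Among BRICHOS-treated mice *Psenen* and *Aph1a* were also higher, and *Bace2*, at or near the detection floor in the App-BRICHOS mice, was lower. *App* and *Bace1* were lower on average in *App*NL-G-F mice but did not pass the test in either comparison.

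With veh, 4 of the 9 genes passed an adjusted p-value of 0.05 (edgeR's quasi-likelihood test with Benjamini-Hochberg adjustment over all tested genes), 3 higher and 1 lower. Of all tested genes 37.0% passed, 20.1% higher and 16.9% lower. With BRICHOS 7 passed, 5 higher and 2 lower (6 when 10 counts were required in every library, which removes *Bace2*), while 42.5% of all tested genes did, 20.8% higher and 21.8% lower. In both comparisons 3 members were called higher and 1 was called lower, beside 15.1% and 11.6% of all tested genes. The groups did not overlap for 7 of the 9 genes with veh and for 7 with BRICHOS, against 50.9% and 51.7% of all tested genes. Omitting the first 2 App-veh mice, which were highest in astrocyte markers, leaves 1 mouse in that group. The members called without those mice are therefore not counted here. This omission and the next were chosen after the data were seen. Without the 2 libraries highest in oligodendrocyte markers (the second WT-veh and the first WT-BRICHOS mouse) 4 members passed with veh and 6 with BRICHOS, beside 30.5% and 35.5% of all tested genes. The median log2 fold change of the 9 genes was 0.12 and 0.24, and that of all tested genes -0.02 and -0.04.

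**Figure D1:**
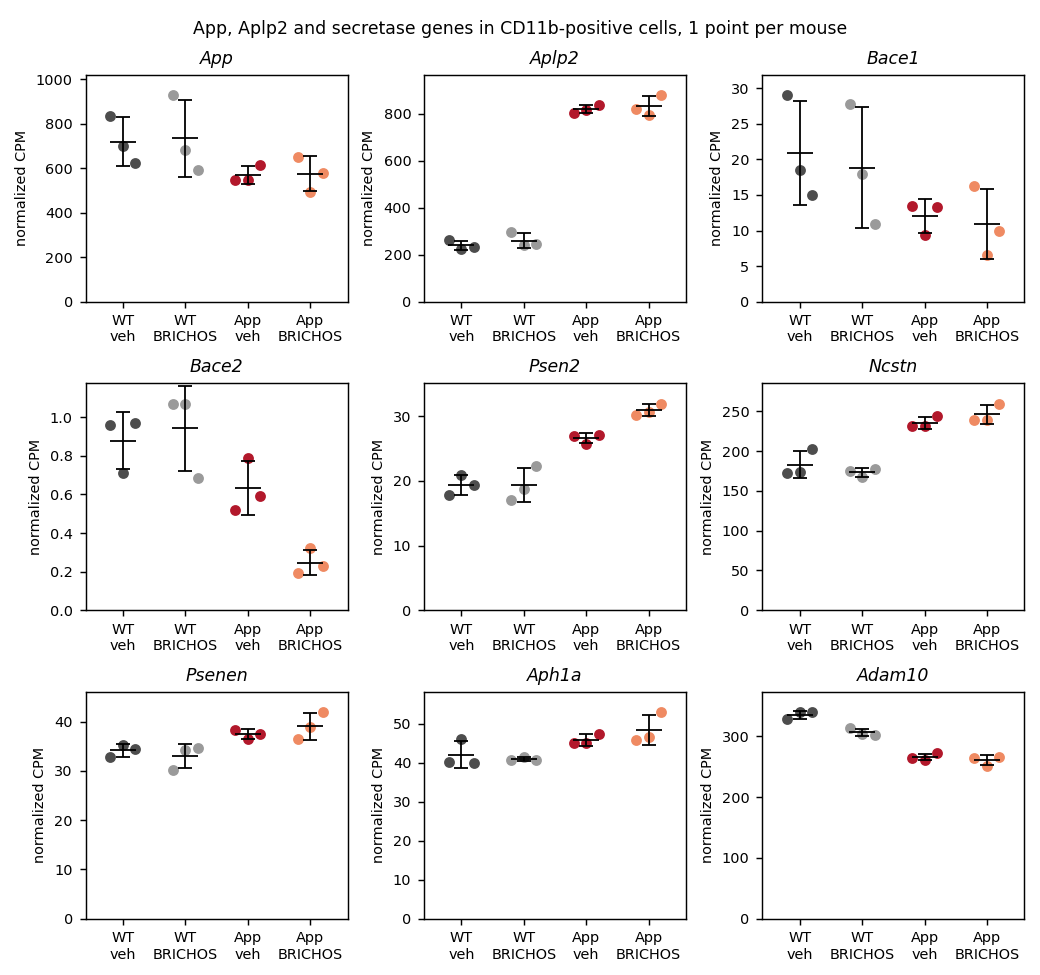
Normalized CPM (linear axes from 0) of the 9 genes in each of the 12 mice, with 1 panel per gene and 1 point per mouse. Horizontal bars are means and whiskers SDs of 3 mice. The 6 *App*NL-G-F points of *Aplp2* lie between 795 and 879 CPM and the 6 WT points between 226 and 294 CPM, while *App* and *Bace1* spread widely among WT mice.

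Among the substrates, *Aplp2* showed the greatest rise of the 9 genes. Its product is a close relative of App that lacks the Aβ sequence and is cut by the same kinds of secretases. *Aplp2* was measured at 260, 226 and 232 CPM in WT-veh mice and at 804, 817 and 837 CPM in App-veh mice. In BRICHOS-treated mice it was at 294, 240 and 245 CPM in WT and at 820, 795 and 879 CPM in *App*NL-G-F mice. All *App*NL-G-F libraries were thus far above all WT libraries. The fold was 3.42 (95% interval 3.01 to 3.89, log2 fold change 1.78, SE 0.0844, adjusted p = 3.76e-08 by edgeR) with veh and 3.20 (2.82 to 3.64, log2 fold change 1.68, SE 0.0841, adjusted p = 4.52e-08) with BRICHOS. By log2 fold change *Aplp2* ranked 535 from the top of 15425 tested genes in the first comparison and 365 in the second.

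*App* was measured at 837, 702 and 623 CPM in WT-veh mice and at 549, 547 and 615 CPM in App-veh mice. In BRICHOS-treated mice it was at 929, 683 and 593 CPM in WT and at 653, 495 and 578 CPM in *App*NL-G-F mice. The lowest WT-veh library lay just above the highest App-veh library, and the BRICHOS-treated groups overlapped. The log2 fold change was -0.34 (SE 0.161, 95% interval -0.69 to 0.01, adjusted p = 0.12 by edgeR) with veh and -0.35 (SE 0.161, -0.71 to -0.001, adjusted p = 0.0988) with BRICHOS. *App* passed the threshold with veh when only the compared groups were fitted (adjusted p = 0.0417 by edgeR) or without the first WT mouse given BRICHOS (0.0484), and with BRICHOS without the third WT mouse of that treatment (0.032).

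Within a library, the ratio of *App* to *Aplp2* counts does not depend on scaling. It was 2.68 to 3.22 in WT-veh mice and 2.42 to 3.16 in WT-BRICHOS mice, against 0.669 to 0.734 and 0.623 to 0.796 in the corresponding *App*NL-G-F mice. Thus *App* had more counts than its paralog in each WT library and fewer in each *App*NL-G-F library.

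The β-secretase gene *Bace1* was low and varied widely. In WT-veh mice it was at 29.0, 18.6 and 14.98 CPM, in App-veh mice at 13.5, 9.32 and 13.3 CPM. In BRICHOS-treated mice it was at 27.8, 17.9 and 10.9 CPM in WT and at 16.3, 6.53 and 9.90 CPM in *App*NL-G-F mice. The veh-treated groups did not overlap and the BRICHOS-treated groups did. The log2 fold change was -0.79 in both (SE 0.383, adjusted p = 0.126 with veh, and SE 0.384, adjusted p = 0.122 with BRICHOS, by edgeR). *Bace1* passed with veh when only the compared groups were fitted (adjusted p = 0.0417 by edgeR), and with BRICHOS without the third WT mouse (0.0422) or without the first *App*NL-G-F mouse of that treatment (0.0363).

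The libraries highest in *App* and *Bace1* were the first mice of both WT groups, and these were also highest in *Aplp1*, a further *App* paralog, with 453 CPM in the veh-treated and 432 CPM in the BRICHOS-treated mouse. The other *Aplp1* values were 263 and 177 CPM in WT-veh, 225 and 99.3 CPM in WT-BRICHOS, 181, 167 and 196 CPM in App-veh and 271, 70.2 and 135 CPM in App-BRICHOS mice. Oligodendrocyte markers summed to 13298, 16582 and 9409 CPM in WT-veh mice, listed in replicate order. In WT-BRICHOS mice these sums were 14995, 6496 and 4013 CPM. Neuron markers summed to 29.5, 28.3 and 22.7 CPM in WT-veh and to 26.5, 28.1 and 33.9 CPM in WT-BRICHOS mice. The part of other cells in the levels of *App*, *Bace1* and *Aplp1* was not tested.

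**Figure D2:**
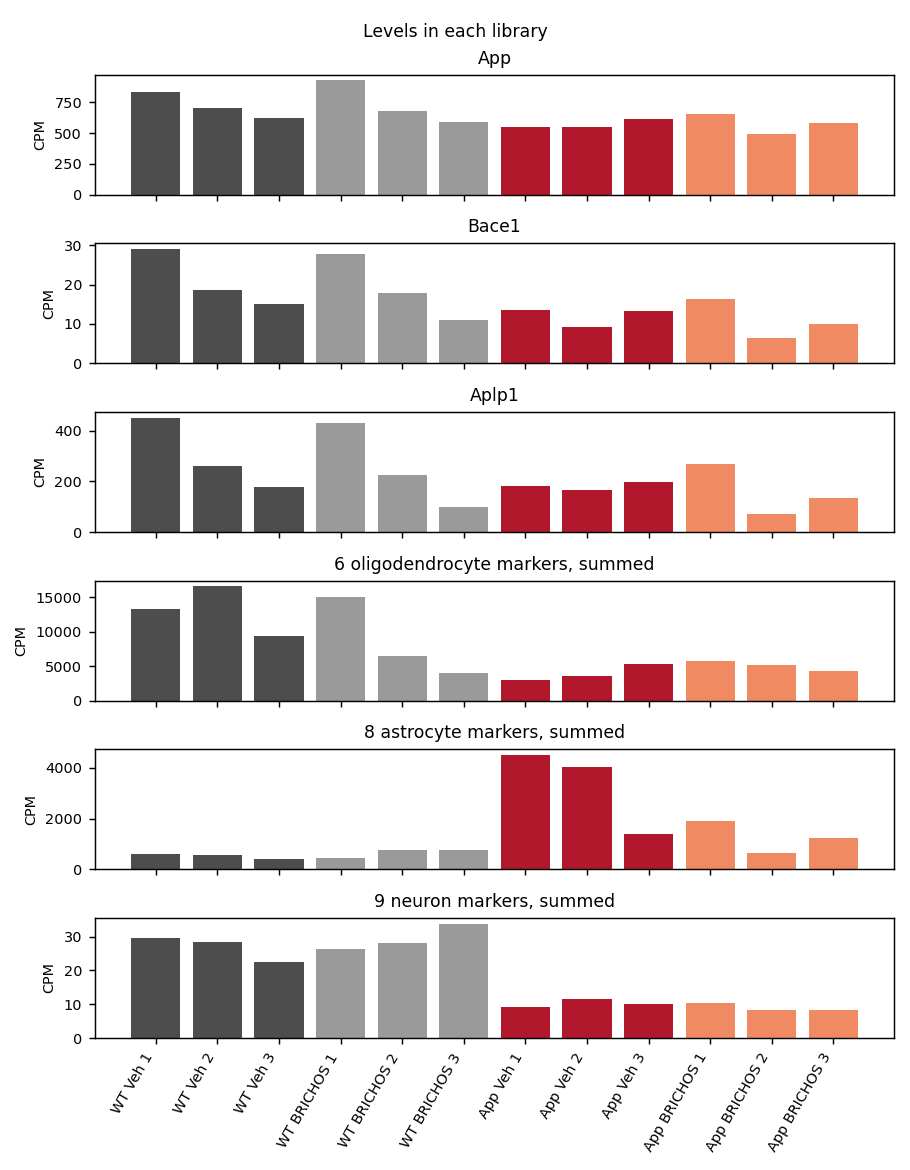
Normalized CPM of *App*, *Bace1* and *Aplp1* and summed CPM of the markers of oligodendrocytes, astrocytes and neurons in each of the 12 libraries (bars, linear axes from 0, coloured by group). *App*, *Bace1* and *Aplp1* are highest in the first mouse of both WT groups, astrocyte markers in the first 2 App-veh mice.

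*Bace2*, which encodes a relative of Bace1 that mostly cuts other substrates, was close to the detection floor. Its counts were 14, 12 and 13 in WT-veh, 17, 19 and 12 in WT-BRICHOS, 8, 12 and 8 in App-veh and 3, 5 and 3 in App-BRICHOS mice. The last group lay below all others, with 2 of its 3 libraries at the floor. The gene passed the filter on low counts through the other groups, and did not pass with 10 counts required in every library. Among BRICHOS-treated mice the fitted log2 fold change between strains, which is imprecise at such counts, was -1.89 (SE 0.366, adjusted p = 0.00159 by edgeR), and the summed counts of 11 against 48 gave a ratio of 0.264 with an exact 95% interval of 0.124 to 0.516 that covers counting error only. With veh the log2 fold change was -0.46 (adjusted p = 0.311 by edgeR) and the groups overlapped.

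Of the 4 γ-secretase genes among the 9, *Psen2* had the largest log2 fold change between strains under both treatments. It was at 17.9, 20.9 and 19.4 CPM in WT-veh and at 27.0, 25.7 and 27.1 CPM in App-veh mice. With BRICHOS it was at 17.1, 18.8 and 22.3 CPM in WT and at 30.3, 30.6 and 32.0 CPM in *App*NL-G-F mice. All *App*NL-G-F libraries were above all WT libraries. The log2 fold change was 0.46 (SE 0.0966, adjusted p = 0.0033 by edgeR) with veh and 0.67 (SE 0.0959, adjusted p = 0.000189) with BRICHOS.

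*Ncstn*, the gene of the substrate-binding subunit nicastrin, was at 172, 174 and 203 CPM in WT-veh and 231, 232 and 244 CPM in App-veh mice. With BRICHOS it was at 175, 167 and 178 CPM in WT and at 239, 239 and 260 CPM in *App*NL-G-F mice. Again all *App*NL-G-F libraries were above all WT libraries, with a log2 fold change of 0.37 (SE 0.0657, adjusted p = 0.00115 by edgeR) and 0.51 (SE 0.0657, adjusted p = 9.48e-05), respectively.

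*Psenen* and *Aph1a*, the genes of the small subunits Pen-2 and Aph-1a, moved less. *Psenen* was between 30.2 and 35.3 CPM in the WT and between 36.4 and 41.9 CPM in the *App*NL-G-F libraries, so that the strains did not overlap. Its log2 fold change was 0.13 (adjusted p = 0.178 by edgeR) with veh and 0.24 (adjusted p = 0.0192) with BRICHOS. *Aph1a* was between 39.9 and 46.1 CPM in WT and between 45.0 and 53.0 CPM in *App*NL-G-F mice, with log2 fold changes of 0.12 (adjusted p = 0.209 by edgeR) and 0.24 (adjusted p = 0.0194).

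Both of these calls were lost under some alternatives. *Psenen* lost its call with only the compared groups fitted (log2 fold change 0.25, adjusted p = 0.0656 by edgeR), without the first WT mouse (0.18, adjusted p = 0.0722) or without the third *App*NL-G-F mouse given BRICHOS (0.19, adjusted p = 0.0704). *Aph1a* lost it without the third WT mouse of that treatment, at the same log2 fold change of 0.24 (adjusted p = 0.0534 by edgeR), or without the third *App*NL-G-F mouse (0.18, adjusted p = 0.0758).

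*Adam10*, the gene of the main α-secretase and of a sheddase for many surface proteins, was the one member lower in *App*NL-G-F mice in both comparisons. It was at 328, 340 and 339 CPM in WT-veh and at 265, 261 and 272 CPM in App-veh mice. With BRICHOS it was at 313, 304 and 301 CPM in WT and at 265, 251 and 267 CPM in *App*NL-G-F mice. The strains did not overlap. The log2 fold change was -0.33 (SE 0.0427, adjusted p = 9.55e-05 by edgeR) with veh and -0.23 (SE 0.0427, adjusted p = 0.00114) with BRICHOS, or 20.7% and 14.8% lower.

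**Figure D3:**
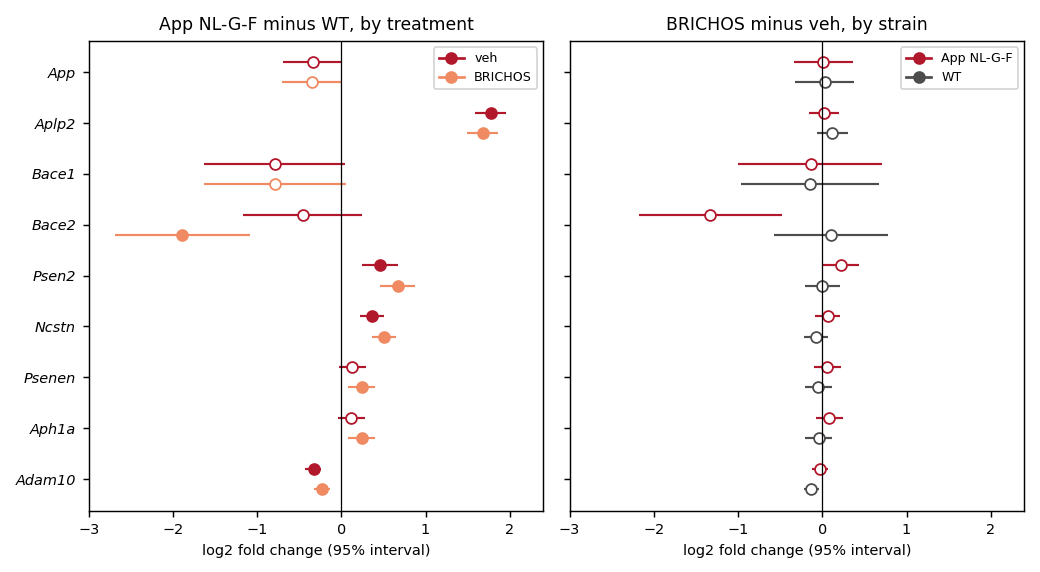
Log2 fold changes of the 9 genes with 95% intervals from the fit, between strains under each treatment (left) and between treatments in each strain (right). Filled points passed an adjusted p-value of 0.05, open points did not. *Aplp2* stands at 1.78 and 1.68 between strains, and no gene has a filled point between treatments.

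To ask whether treatment affects these genes, the mice given BRICHOS and the mice given veh were compared within each strain. None of the 9 genes passed in *App*NL-G-F mice, in WT mice or in the test of the difference between the strains, by edgeR or by DESeq2's Wald test. Of all tested genes, edgeR called 0.00648% in *App*NL-G-F mice, 0.0% in WT mice and 0.00648% for the difference. DESeq2 called 119, 80 and 244 of the 15425 genes. At an unadjusted p-value under 0.05, edgeR took 2 members in *App*NL-G-F mice, 1 in WT mice and 1 for the difference, beside 10.8%, 11.4% and 14.8% of all tested genes. The groups did not overlap for 2 and 1 members, against 13.5% and 17.5% of all tested genes.

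In *App*NL-G-F mice these were *Bace2* (log2 fold change -1.33, SE 0.388, adjusted p = 0.294 by edgeR) and *Psen2* (0.22, SE 0.0951, adjusted p = 0.434). The summed *Bace2* counts of 11 and 28 gave a ratio of 0.391 with an exact counting interval of 0.176 to 0.811, and the difference between strains in its treatment effect was -1.43 on the log2 scale (SE 0.494, adjusted p = 0.238 by edgeR). In WT mice *Adam10* was at 301 to 313 CPM with BRICHOS and at 328 to 340 CPM with veh (log2 fold change -0.13, SE 0.0426, adjusted p = 0.289 by edgeR). For *App* the interval of the treatment effect was -0.34 to 0.37 in *App*NL-G-F and -0.32 to 0.38 in WT mice on the log2 scale, and for *Aplp2* -0.16 to 0.20 and -0.06 to 0.30. For *Bace1* it was -1.0 to 0.71 and -0.97 to 0.67, so changes within these limits are not excluded.

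The levels of the most similar genes across the 12 libraries were compared after centring each gene's log2 CPM on its mean. *Aplp2* was closest to *Gyg* (root mean square difference 0.0937), *Gng12* (0.10) and *Rftn1* (0.109), *Adam10* to *Rptor* (0.0277), *Diaph2* (0.0322) and *Zfp865* (0.0356), and *Psen2* to *C1qb* (0.0708), *Med28* (0.0729) and *Polr2f* (0.0735). *Ncstn* was closest to *Nptn* (0.0504), *Tbxas1* (0.0559) and *Acox3* (0.0563). *App* was closest to *Ttll5* (0.0778), *5031439G07Rik* (0.08) and *Fnbp1* (0.0846), and *Bace1* to *Rtkn* (0.137), *Aatk* (0.155) and *Kif21a* (0.16). For *Bace2* these were *Tdrp* (0.165), *Ephb4* (0.212) and *Fzd6* (0.236), for *Psenen* *Mcfd2* (0.0402), *Cops8* (0.0405) and *Prep* (0.0407), and for *Aph1a* *Prep* (0.0445), *Psmd1* (0.0507) and *Ncbp2* (0.0526). As a scale, the profile of *Aplp2* itself had a root mean square of 0.87 and that of *Aph1a* of 0.119.

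A further 65 genes of App processing were held in 4 lists. For these genes, values with veh and with BRICHOS compare *App*NL-G-F with WT mice given that treatment. A rise or fall is a difference between these strains. With veh 40 of them passed, 26 higher and 14 lower in *App*NL-G-F mice, and with BRICHOS 40 passed, 21 higher and 19 lower, against 37.0% and 42.5% of all tested genes. In both comparisons 19 were called higher and 11 were called lower, beside 15.1% and 11.6% of all tested genes. Their median log2 fold changes were 0.10 and 0.06. None passed between treatments in either strain. Without the first 2 App-veh mice, which were highest in astrocyte markers, 20 passed with veh, 14 higher and 6 lower, with 1 mouse left in that group. The share of all tested genes called fell alongside, from 37.0% to 16.0%. That omission was chosen after the data were seen.

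Of the 9 remaining genes of paralogs and secretases 3 passed with veh and 6 with BRICHOS, beside 37.0% and 42.5% of all tested genes. *Adam9*, the gene of a metalloproteinase that can cut App, was higher in *App*NL-G-F mice in both comparisons (log2 fold change 0.39, adjusted p = 0.000226, and 0.34, adjusted p = 0.000474 by edgeR) and *Adam19* was lower in both (-1.17, adjusted p = 0.0386, and -1.66, adjusted p = 0.00581). *Adam8*, another metalloproteinase gene, rose by 0.96 with veh (adjusted p = 0.00629 by edgeR) and had a value of 0.48 (adjusted p = 0.103) with BRICHOS. *Adam17*, which encodes the enzyme that releases Tnf, had -0.03 with veh (adjusted p = 0.654 by edgeR). It was higher by 0.17 in App-BRICHOS than in WT-BRICHOS mice (adjusted p = 0.0229 by edgeR). Its means were 231 CPM in WT-veh, 207 in WT-BRICHOS, 226 in App-veh and 232 CPM in App-BRICHOS mice.

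The genes *Aph1b* and *Aph1c* are close copies, so reads may have been divided between them in an unknown way. They were lower in App-BRICHOS than in WT-BRICHOS mice by 0.71 (adjusted p = 0.011 by edgeR) and 0.73 (adjusted p = 0.0187). With veh they had values of 0.27 and 0.35 (adjusted p = 0.297 and 0.242 by edgeR). Means of *Aph1b* were 6.68 CPM in WT-veh, 9.03 in WT-BRICHOS, 8.01 in App-veh and 5.50 CPM in App-BRICHOS mice. Those of *Aph1c* were 5.25, 9.43, 6.67 and 5.71 CPM, respectively. *Aplp1* (-0.72 and -0.67, adjusted p = 0.323 and 0.343 by edgeR) and *Adam15* (-0.05 and 0.34, adjusted p = 0.814 and 0.0971) did not pass.

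Among the 18 partners and regulators of the secretases 13 passed with veh, 11 higher and 2 lower, and 11 with BRICHOS, 8 higher and 3 lower. The shares over all tested genes were 37.0% and 42.5%. *Timp2*, an inhibitor of metalloproteinases, rose from 566, 584 and 607 CPM in WT-veh to 1242, 1306 and 1408 CPM in App-veh mice (log2 fold change 1.17, adjusted p = 1.87e-07 by edgeR) and by 1.42 (adjusted p = 3.96e-08) with BRICHOS. *Timp3*, an inhibitor that acts on Adam10 and Adam17, had 0.23 (adjusted p = 0.466 by edgeR) with veh. It was lower by 1.26 (adjusted p = 0.00162 by edgeR) in App-BRICHOS than in WT-BRICHOS mice. In App-veh mice *Timp3* was at 101 and 99.0 CPM in the first 2 mice, with astrocyte marker sums of 4509 and 4033 CPM, and at 56.5 CPM in the third, with a sum of 1405 CPM. In WT-BRICHOS mice it was at 94.0, 84.9 and 99.4 CPM, with sums of 428, 778 and 781 CPM. In App-BRICHOS mice it was at 46.7, 25.8 and 43.7 CPM, with sums of 1887, 653 and 1245 CPM. Mural cell markers summed to 172-227 CPM in WT-BRICHOS, 83.4-128 in App-veh and 54.3-89.3 CPM in App-BRICHOS mice. Choroid plexus and ependyma markers summed to 3187-6656, 629-1920 and 637-951 CPM, respectively. The part of astrocytes or of these other cells in the levels of *Timp3* was not tested. *Gsap*, named for γ-secretase activation, rose by 0.71 (adjusted p = 2.8e-05 by edgeR) and 0.60 (adjusted p = 9.39e-05).

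The 3 *Itm2* genes on this list encode the Bri family, of which Bri2 binds App. *Itm2b*, the gene of Bri2, was at 2538, 2828 and 2726 CPM in WT-veh and 3462, 3368 and 3414 CPM in App-veh mice, a log2 fold change of 0.34 (SE 0.06, adjusted p = 0.00101 by edgeR), and of 0.47 (SE 0.06, adjusted p = 8.24e-05) with BRICHOS. *Itm2c* rose by 0.71 (adjusted p = 9.85e-06 by edgeR) and 0.83 (adjusted p = 2.68e-06). *Itm2a* fell by 0.81 (adjusted p = 0.00256 by edgeR) and by 1.41 (adjusted p = 5.26e-05). Thus *Itm2b* and *Itm2c* were higher and *Itm2a* was lower in *App*NL-G-F mice under both treatments.

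The list also held 5 tetraspanins that escort Adam10 to the cell surface. *Tspan14* fell by 0.48 with veh (adjusted p = 3.88e-05 by edgeR) and by 0.22 with BRICHOS (adjusted p = 0.00667), *Tspan17* rose by 0.59 and 0.65 (adjusted p = 0.0326 and 0.0165), and *Tspan33* and *Tspan5* rose with veh by 0.66 (adjusted p = 0.0041) and 0.57 (adjusted p = 0.00562). With BRICHOS *Tspan33* had 0.37 (adjusted p = 0.0559 by edgeR) and *Tspan5* 0.27 (adjusted p = 0.118). *Tspan15* did not pass in either (adjusted p = 0.901 and 0.33 by edgeR). *Itm2b*, *Tspan14*, *Tspan15*, *Tspan17* and *Tspan5* were singled out after their values were seen.

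Of 18 genes that traffic App or Bace1 or bind App's tail, 11 passed with veh, 8 higher and 3 lower, and 10 with BRICHOS, 6 higher and 4 lower. The shares over all tested genes were 37.0% and 42.5%. *Apbb2*, which encodes a protein that binds the intracellular tail of App, rose from 33.4, 40.5 and 36.3 CPM to 93.4, 84.3 and 110 CPM with veh (log2 fold change 1.38, adjusted p = 1.32e-05 by edgeR) and by 1.57 (adjusted p = 4.42e-06) with BRICHOS. *Gga2*, an adaptor of transport between the Golgi and endosomes, rose by 0.80 (adjusted p = 2.68e-05 by edgeR) and 0.89 (adjusted p = 1.04e-05). *Numb*, an endocytic adaptor, fell by 0.64 (adjusted p = 6.92e-06 by edgeR) and 0.47 (adjusted p = 7.17e-05). *Dab2*, another endocytic adaptor, was lower by 0.78 in App-BRICHOS than in WT-BRICHOS mice (adjusted p = 0.000744 by edgeR) and had -0.22 with veh (adjusted p = 0.228). Its means were 126 CPM in WT-veh, 177 in WT-BRICHOS, 109 in App-veh and 103 CPM in App-BRICHOS mice.

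*Apba2*, a further binder of the App tail, was at 2.94, 2.85 and 1.86 CPM in WT-veh and at 14.2, 14.97 and 6.59 CPM in App-veh mice (log2 fold change 2.22, adjusted p = 0.00085 by edgeR). The first 2 of the latter were the mice highest in astrocyte markers, and what part these cells had was not tested. With BRICHOS the log2 fold change of *Apba2* was 0.21 (adjusted p = 0.681 by edgeR).

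Of 20 other membrane proteins that secretases or related enzymes cut in myeloid cells, or that are held to be cut, 13 passed in each comparison. With veh 5 were higher and 8 lower, and with BRICHOS 4 were higher and 9 lower. The shares over all tested genes were 37.0% and 42.5%. The receptor genes *Axl* and *Trem2* were among those that rose. *Axl* was between 65.4 and 86.7 CPM in WT and between 732 and 886 CPM in *App*NL-G-F mice, with log2 fold changes of 3.48 (adjusted p = 6.51e-10 by edgeR) and 3.37 (adjusted p = 5.26e-10). *Trem2* rose by 1.46 (adjusted p = 8.3e-08 by edgeR) and 1.75 (adjusted p = 2e-08). *Il6ra*, the interleukin-6 receptor gene, fell by 0.79 (adjusted p = 6.67e-06 by edgeR) and 0.49 (adjusted p = 0.000243), and *Siglech*, a microglial lectin gene, by 0.56 (adjusted p = 0.000105) and 0.29 (adjusted p = 0.00676).

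*Cx3cl1*, the gene of fractalkine, which neurons make and Adam10 sheds, fell by 1.07 (adjusted p = 0.00031 by edgeR) and 2.39 (adjusted p = 7.63e-07). The summed 9 neuron markers were lower in the same *App*NL-G-F libraries, with sums given above. *Cx3cl1* was at 7.90 to 9.39 CPM in App-veh and at 3.33 to 5.29 CPM in App-BRICHOS mice. The neuron sums of these groups were 9.13 to 11.6 and 8.16 to 10.3 CPM. The part of neurons in the levels of *Cx3cl1* was not tested. *Lrp8*, a receptor of reelin, was lower by 1.19 in App-BRICHOS than in WT-BRICHOS mice (adjusted p = 5.16e-05 by edgeR) and had 0.13 with veh (adjusted p = 0.492). Its means were 15.0 CPM in WT-veh, 19.8 in WT-BRICHOS, 16.4 in App-veh and 8.68 CPM in App-BRICHOS mice.

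**Figure D4:**
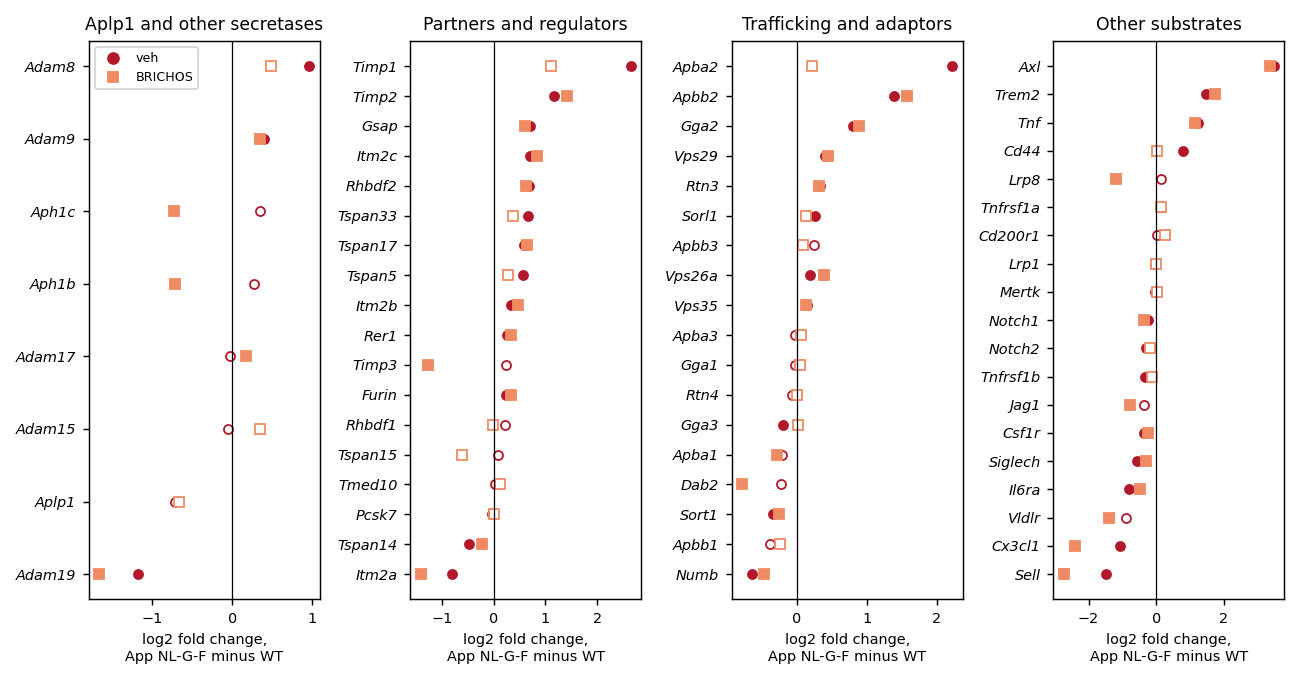
Log2 fold changes (*App*NL-G-F minus WT) of further genes of App processing, in 4 lists, with veh (circles) and with BRICHOS (squares). Filled symbols passed an adjusted p-value of 0.05. *Axl* stands highest on the list of other substrates at 3.48 and 3.37, and *Timp2* and *Apbb2* are above 1 in both comparisons.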

How the data were processed

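RNA of CD11b-positive cells from 12 mice was sequenced with a stranded mRNA library kit. According to the submitters' processing notes, the authors used FastQC 0.11.8, STAR 2.6.1d, featureCounts 1.5.1 and GRCm38, and the deposited values are raw counts per gene without normalization. The study's text describes trimming with Cutadapt and DESeq2 for testing. The strand setting and the handling of shared reads are not given in the sources used here.

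The 9 genes, the lists and the markers were chosen with earlier results of these data known. Genes were annotated with GENCODE for GRCm38. Genes were kept by filterByExpr (minimum count 10), normalized by TMM and tested with edgeR 4.0.16 (glmQLFit, glmQLFTest) in R 4.3.3, with 1 mean for each of 4 groups of 3 libraries in a fit of all 12. A call required an adjusted p-value below 0.05 (Benjamini-Hochberg, over 15425 genes). CPM used TMM factors, and log2 CPM a prior count of 2. CPM per kb used the longest protein-coding transcript of the best APPRIS principal class. Counting intervals are exact at 95%. Ensembl identifiers were matched to a symbol for 55227 genes, 26314 genes had no count, and total counts of 12433402 to 17889654 set the precision. The study reports 3 mice per group, and each library was taken as 1 mouse. P-values of the quasi-likelihood test set a difference against the spread between libraries. That spread was estimated from all 4 groups, with information shared between genes.

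All 9 genes were named, and so were the further paralog and secretase genes. From the other lists, called genes with an absolute log2 fold change of at least 0.5 were taken, at most 5 per list by lowest p-value, together with the 3 genes closest to each member. Some genes that this rule takes are not reported here, although the counts over the lists include them. The alternatives were DESeq2 1.42.0 size factors, its Wald test, a fit of only the compared groups, no filter, 10 counts in every library, the replicate number as a block and omission of each library. On simulated counts with 200 of 15425 genes changed by a factor of 2 for the strain comparison with veh, edgeR found 176 with 12 false calls and DESeq2 186 with 31. Python 3.11.15, pandas 2.3.3, scipy 1.17.1 and matplotlib 3.10.9 were used for summaries and plots.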

Additional observations from a re-analysis of the deposited data

How the results depend on the processing

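The counts of members called kept within a factor of 1.5 under every alternative run. With veh they were 4 to 6 and with BRICHOS 6 to 9, or 4 to 5 and 5 to 8 with 1 library left out, and between treatments and for the difference 0 throughout. Of 219 alternatives of called log2 fold changes 213 stayed called, 6 lost the call (*Psenen* and *Aph1a*) and 0 turned direction. The pathway genes called were 35 to 41 in both strain comparisons with 1 library left out, and 20 with veh without the 2 libraries highest in astrocyte markers, where the 1 mouse left is assumed to vary like the other groups and the cause was not tested. *Psenen* with BRICHOS had an adjusted p of 0.0857 by edgeR without the 2 libraries highest in oligodendrocyte markers. Both omissions were chosen after seeing the data. *Bace2* has no value under the filter of 10 counts in every library. DESeq2's size factors shifted the median log2 fold change of all genes by at most 0.0195.

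Equally numbered libraries did not pair, since the correlation of their deviations was between -0.0148 and 0.227. With the replicate block 5 members were called with veh and 9 with BRICHOS. In addition to the others *Bace1* passed with veh (adjusted p = 0.0389 by edgeR) and *App* (0.0493) and *Bace1* (0.0274) with BRICHOS. The block changed no other call. It turned the log2 fold changes of *App* between treatments in *App*NL-G-F mice to -0.0012, of *Psen2* in WT mice to -0.004 and of *Bace1* in the difference to -0.049.

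All other values that turned direction were uncalled effects of treatment, with the cause not tested. *Psen2* in WT mice turned to -0.0013 with size factors and with the Wald test and to -0.017 with no filter. The difference for *App* turned to 0.0042 with no filter, and that for *Bace1* to -0.018 with 10 counts in every library. Without the astrocyte-high libraries *App* in *App*NL-G-F mice turned to -0.084 and the difference for *Bace1* to -0.14. Without the oligodendrocyte-high libraries the values in WT mice turned to -0.20 for *App*, -0.025 for *Aplp2*, -0.13 for *Bace2*, 0.031 for *Psenen* and 0.033 for *Aph1a*, and the differences to 0.21 for *App* and 0.047 for *Aplp2*. With 1 library left out, log2 fold changes in *App*NL-G-F mice ran from -0.086 to 0.12 for *App*, -0.02 to 0.06 for *Aplp2*, -0.56 to 0.13 for *Bace1* and -0.044 to 0.0062 for *Adam10*. In WT mice they ran from -0.18 to 0.16 for *App*, -0.54 to 0.16 for *Bace1*, -0.036 to 0.29 for *Bace2*, -0.11 to 0.08 for *Psen2*, -0.087 to 0.0052 for *Psenen* and -0.077 to 0.03 for *Aph1a*. The differences ran from -0.15 to 0.19 for *App*, -0.16 to 0.0074 for *Aplp2* and -0.41 to 0.40 for *Bace1*.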
